A study of Homo sapiens with 22 samples.

Results

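The HOX cluster genes are the 39 rows of the deposited human expression table whose symbol is HOX followed by a letter from A to D and a number, out of 48648 genes with a symbol of their own. They comprise 11 genes of the HOXA cluster on chromosome 7, 10 of HOXB on chromosome 17, 9 of HOXC on chromosome 12 and 9 of HOXD on chromosome 2. RNA was measured by poly-A RNA sequencing in 22 libraries labelled RWPE1, an immortalized line of human prostate epithelium. Per the labels, 6 libraries came from cells with wild-type NKX3.1, a homeodomain transcription factor of prostate luminal cells. Another 6 came from cells with the form R52C, 4 from cells with the form T164A and 6 from cells with the control vector. Every title names paraquat, a compound that generates superoxide by redox cycling, although 3 of the 4 T164A libraries carry no treatment tag. None of the 22 titles names an untreated library. The labels name neither the promoter driving the constructs nor whether a group was 1 clone, and they do not say that the libraries of a group were separate cultures, so a p-value speaks to the spread among libraries alone, and that spread may be technical.

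HOX proteins are transcription factors that bind DNA through a homeodomain and give cells of the embryo their position along the head-to-tail axis. Within a cluster the genes stand in the order in which they are used along that axis, and genes at the same place in different clusters form a paralog group, whose number is the number in the symbol. The highest numbers belong to the tail end and to the urogenital tract, and in the prostate HOXB13 is the member best known, as a luminal factor that acts together with the androgen receptor. Adult epithelial lines keep a HOX pattern that reflects the tissue they came from, so the pattern is often used to compare the origin of cells. Position itself was not measured here.

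Levels are on the deposited log2 scale, where 1 unit is a 2-fold change. Whether they are scaled to gene length is not given in the sources used here, so each gene was compared between groups and not with other genes. A level of 3 was taken as the limit of detection, since entries with a mean under 0 held noise that stayed, but for the rarest values, under 2.81. Reads per library are unknown. On a linear scale the levels of a library added up to 17256903 at the lowest and 21506481 at the highest. The kit was not labelled as strand-specific, so reads of HOX genes and of the antisense RNAs that overlap them cannot be told apart.

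The marker genes differed between groups that carry the same cell line label. Summed over 12 basal epithelial genes, the level was 17.55 to 17.70 in NKX3.1, 10.40 to 10.75 in R52C, 17.16 to 17.24 in T164A and 17.88 to 18.16 in Vector, and KRT15, KRT17, TP63 and DSG3 were among those under 3 in R52C. Summed over 14 prostate luminal genes it was 16.08 to 16.34 in NKX3.1, 17.96 to 17.98 in R52C, 11.88 to 11.96 in T164A and 13.80 to 14.78 in Vector, and KLK3, KLK2, KLK4, TMPRSS2 and HPN were under 3 in T164A. Over 6 kidney and neuroendocrine genes the summed level was 9.82 to 9.91 in NKX3.1, 10.29 to 10.37 in R52C, 13.71 to 13.74 in T164A and 9.46 to 9.85 in Vector, and the T164A sum is nearly all IRS4, at 13.63 to 13.65 there and under 3 on average elsewhere. Against Vector, 3 of these 6 genes were higher in T164A and 2 lower. Replicate numbers in this report follow the order of the library codes in the titles within a group, and the labels name no batch. The sample record numbers of Vector, NKX3.1 and R52C run on from one another, while those of T164A come much later. Any effect of a separate submission cannot be told apart from the T164A form. KRT5, the basal keratin, was at 6.85 to 6.95 in R52C replicates 1 to 3 and at 0.55 to 1.72 in replicates 4 to 6, so R52C results were also taken without each of these sets. The part of these differences in the HOX results was not tested. In bulk RNA, fewer cells of a type and less RNA per cell cannot be told apart.

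The promoters below are RefSeq windows on GRCh38.p14, from 250 bases before to 50 after a gene's start, with CpG dinucleotides in capitals. They belong to members that the results turn on: HOXD10 and HOXD13 of the cluster that R52C libraries lacked, HOXA13, the terminal gene of HOXA, and the window that RefSeq gives for both HOXC4 and HOXC5. HOXD10 lies at chr2:176116528-176116827 and HOXD13 at chr2:176092471-176092770, both on the plus strand. HOXA13 lies at chr7:27200042-27200341 on the minus strand, and HOXC4 with HOXC5 at chr12:54016638-54016937 on the plus strand.
HOXD10: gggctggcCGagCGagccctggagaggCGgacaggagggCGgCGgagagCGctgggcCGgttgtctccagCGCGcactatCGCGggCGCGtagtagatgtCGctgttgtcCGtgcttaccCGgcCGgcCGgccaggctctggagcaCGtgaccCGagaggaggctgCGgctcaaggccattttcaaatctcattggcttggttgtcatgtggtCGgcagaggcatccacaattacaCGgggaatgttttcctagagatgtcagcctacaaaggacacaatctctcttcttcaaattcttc
HOXD13: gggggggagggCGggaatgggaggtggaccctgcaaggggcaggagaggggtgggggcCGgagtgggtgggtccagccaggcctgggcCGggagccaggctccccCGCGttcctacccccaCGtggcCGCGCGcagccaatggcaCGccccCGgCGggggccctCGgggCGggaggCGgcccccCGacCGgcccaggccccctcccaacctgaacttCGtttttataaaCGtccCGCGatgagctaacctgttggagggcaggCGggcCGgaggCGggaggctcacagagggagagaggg
HOXA13: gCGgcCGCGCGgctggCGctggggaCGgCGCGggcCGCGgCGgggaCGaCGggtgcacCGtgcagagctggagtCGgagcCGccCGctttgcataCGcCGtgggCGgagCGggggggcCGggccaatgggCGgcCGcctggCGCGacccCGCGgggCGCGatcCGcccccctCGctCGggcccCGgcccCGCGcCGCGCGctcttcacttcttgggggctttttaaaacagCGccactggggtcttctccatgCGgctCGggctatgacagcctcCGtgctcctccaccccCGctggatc
HOXC4 and HOXC5: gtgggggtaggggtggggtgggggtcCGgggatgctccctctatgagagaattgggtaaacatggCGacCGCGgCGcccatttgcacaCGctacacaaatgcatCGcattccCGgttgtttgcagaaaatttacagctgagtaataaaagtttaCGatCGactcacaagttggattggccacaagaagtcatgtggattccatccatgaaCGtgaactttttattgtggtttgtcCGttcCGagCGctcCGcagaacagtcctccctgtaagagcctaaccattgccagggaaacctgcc

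Windows were found for 20 of the 39 genes, 26 windows in all. Most lie in HOXA and HOXD, several of them at HOXA3 alone. In HOXB only HOXB1 had a window, and in HOXC only HOXC4 and HOXC5, so the values below describe mainly HOXA and HOXD. The HOX windows held a median of 22.5 CpG, against 14.0 over all 34943 windows, while the median GC content was 58.0% against 58.7%. HOXA13 had the most CpG of the HOX windows, 44, HOXD13 had 24, HOXD10 had 23 and the HOXC4 window had 15. On either strand, the TATA box letters TATAAA stood in 5 of the 26 HOX windows and in 11.6% of all windows, with 2 matches in HOXD13. TGATNNAT, the site shared by PBX and HOX proteins, stood in 3 of 26 and in 7.42% of all. The NKX3.1 consensus TAAGTA stood in 0 of 26 and in 5.85% of all, which says only that these letters are not in these windows. Since HOXC4 and HOXC5 share a start, and HOXC6 transcripts overlap them, the split of reads between these genes is uncertain.

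The R52C libraries had fewer HOX genes above 3 than any other library, and the T164A libraries had nearly the whole family above 3. The mean was above 3 for 34 of the 39 genes in NKX3.1, for 16 in R52C, for 38 in T164A and for 33 in Vector, while of all genes 38.5% were above 3 in NKX3.1, 36.1% in R52C, 37.2% in T164A and 37.9% in Vector. Counted by library, 32 to 34 HOX genes were above 3 in NKX3.1, 14 to 16 in R52C, 37 or 38 in T164A and 32 to 34 in Vector. In R52C, 22 HOX genes had no library above 3, and all 9 HOXD genes were among them. R52C kept 4 of 11 HOXA genes, 5 of 10 HOXB genes and 7 of 9 HOXC genes above 3.

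**Figure D1:**
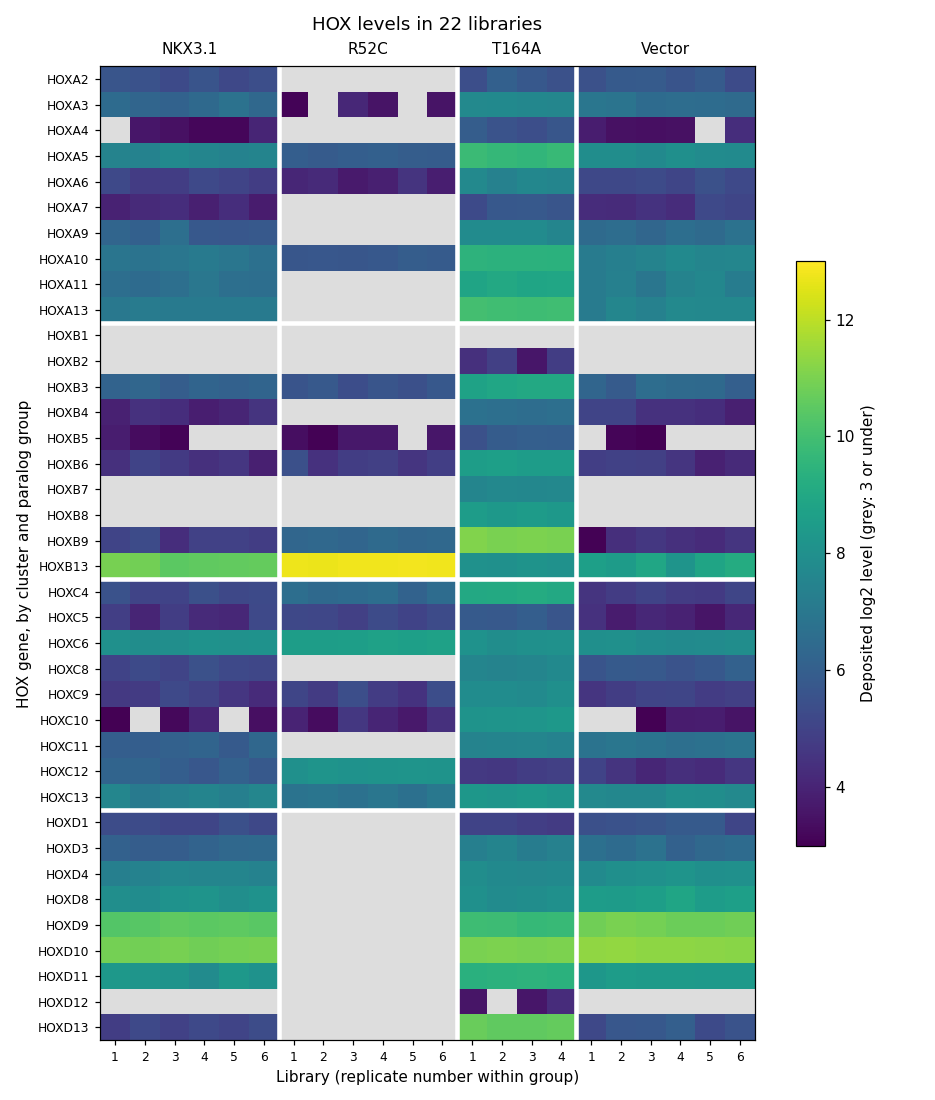
Deposited log2 level of each of 38 HOX genes (rows, by cluster and paralog group) in each of the 22 libraries (columns, by group, with replicate numbers), with levels of 3 or under in grey. The HOXD rows are grey in all 6 R52C libraries, and HOXB2, HOXB7 and HOXB8 are coloured only in the 4 T164A libraries.

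By presence in groups the family fell into 5 patterns. Above 3 in all 4 groups were 15 genes: HOXA3, HOXA5, HOXA6, HOXA10, HOXB3, HOXB6, HOXB9, HOXB13, HOXC4, HOXC5, HOXC6, HOXC9, HOXC10, HOXC12 and HOXC13. Above 3 in all groups but R52C were 18, among them HOXA2, HOXA4, HOXA7, HOXA9, HOXA11, HOXA13, HOXB4, HOXC8, HOXC11 and the HOXD genes other than HOXD12. HOXB2, HOXB7, HOXB8 and HOXD12 were above 3 in T164A alone, HOXB5 in all groups but Vector, and HOXB1, which patterns the hindbrain in the mouse, in none. Nearest to the limit were HOXB5 at 3.02 and HOXD12 at 1.98 in NKX3.1, HOXA3 at 3.30 in R52C, HOXD12 at 3.50 and HOXB1 at -0.07 in T164A, and HOXC10 at 3.26 and HOXB5 at 2.88 in Vector. HOXB5 thus passed the limit in NKX3.1 and missed it in Vector by amounts smaller than the SD of 0.493 in NKX3.1 and 0.191 in Vector.

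In what follows, levels of a 6-library group are its lowest, median and highest value, and T164A levels are its 4 replicates. HOXB13, the prostate luminal factor, was at 10.47, 10.62 and 10.94 in NKX3.1, at 12.73, 12.78 and 12.81 in R52C, at 8.07, 8.02, 8.13 and 8.05 in T164A and at 8.18, 8.76 and 9.15 in Vector. No pair of groups overlapped, with R52C highest and T164A lowest. HOXC12, another gene of the tail-end part of its cluster, was at 5.72, 6.05 and 6.23 in NKX3.1, at 8.02, 8.13 and 8.17 in R52C, at 4.67, 4.62, 4.83 and 4.90 in T164A and at 4.07, 4.44 and 4.99 in Vector. R52C was again above NKX3.1 and NKX3.1 above the other groups, while T164A lay inside the range of Vector. HOXC6, known in mammary development in the mouse, was at 7.91, 8.03 and 8.11 in NKX3.1, at 8.55, 8.61 and 8.73 in R52C, at 8.09, 7.89, 8.04 and 8.05 in T164A and at 7.78, 7.89 and 8.03 in Vector. R52C stood above the rest, and the other groups overlapped.

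HOXB9 was at 4.31, 4.95 and 5.28 in NKX3.1, at 6.25, 6.33 and 6.47 in R52C, at 11.09, 10.997, 11.02 and 11.01 in T164A and at 3.06, 4.37 and 4.63 in Vector. T164A was highest and R52C next, with NKX3.1 and Vector overlapping and the lowest value in Vector replicate 1. HOXC4 was at 5.01, 5.20 and 5.51 in NKX3.1, at 6.15, 6.51 and 6.62 in R52C, at 9.05, 9.08, 9.15 and 9.04 in T164A and at 4.51, 4.79 and 5.09 in Vector, the same order as HOXB9 and with the same overlap. HOXC10 was at 2.73, 3.12 and 4.03 in NKX3.1, at 3.32, 4.02 and 4.64 in R52C, at 8.14, 8.17, 8.21 and 8.35 in T164A and at 2.58, 3.27 and 3.80 in Vector. T164A alone lay apart. In Vector, HOXC10 averaged 2.82 in replicates 1 to 3 and 3.69 in replicates 4 to 6, and these sets did not overlap. The same Vector sets stood apart for HOXA10 (7.31 and 7.62), HOXA13 (7.38 and 7.68) and HOXB4 (4.84 and 4.20). They also did for HOXB6 (4.90 and 4.22), HOXC13 (7.66 and 7.86) and HOXD9 (10.92 and 10.79), and under 3 for HOXB8 and HOXD12. In NKX3.1, replicates 1 to 3 and replicates 4 to 6 stood apart for HOXA9 (6.33 and 5.75), HOXB5 (3.41 and 2.64), HOXC6 (7.95 and 8.08) and HOXD3 (5.99 and 6.33). The share of all genes with such a split is not given here.

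**Figure D2:**
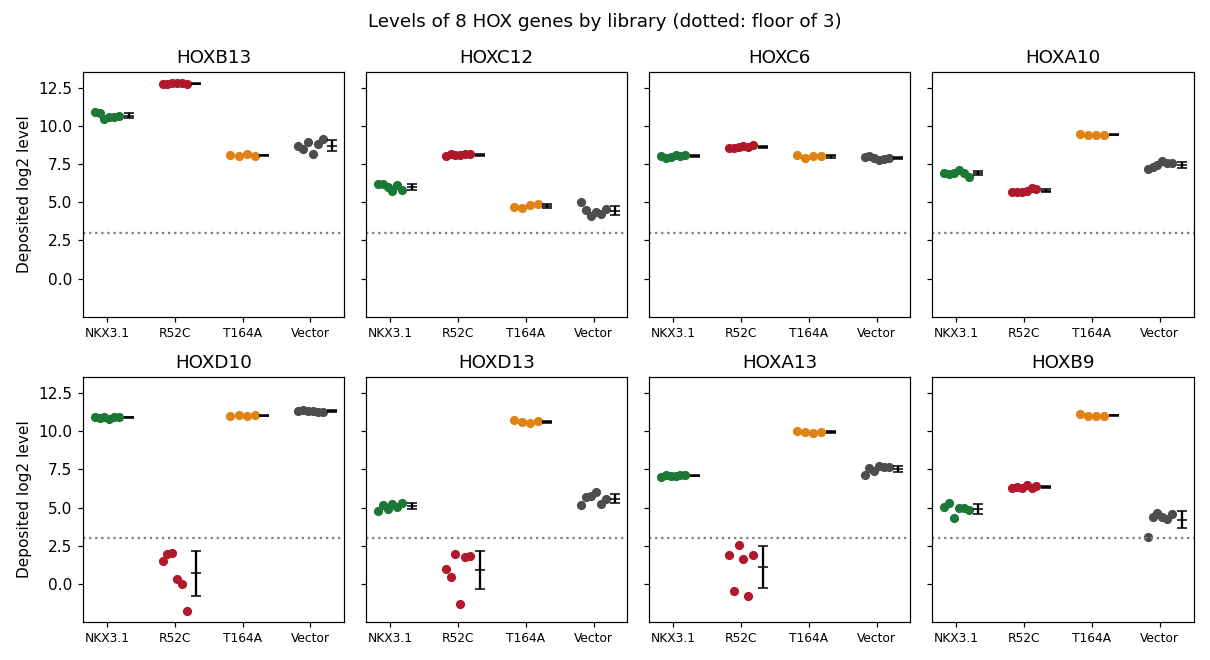
Deposited log2 level of 8 HOX genes in each library (points), with the mean and SD of the group beside them (black) and the limit of 3 (dotted), for NKX3.1, R52C, T164A and Vector from left to right. HOXB13 and HOXC12 are highest in R52C, HOXD10, HOXD13 and HOXA13 are under 3 in all 6 R52C libraries, and HOXB9 is at 10.997 to 11.09 in T164A.

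Along HOXD, no R52C library was above 3. Within R52C, replicates 1 to 3 and replicates 4 to 6 did not overlap for HOXD3, HOXD9 and HOXD10. Their means were 1.40 and -0.60, 1.74 and -0.56, and 1.83 and -0.47. HOXA9 was split the other way (-0.39 and 1.42). Every value of these genes was under 3, in the range taken as noise. KRT5 was likewise higher in R52C replicates 1 to 3. TP63, under 3 in every R52C library, averaged 2.75 in replicates 1 to 3 and -0.23 in replicates 4 to 6. Whether these splits are linked was not tested. HOXA10 (5.67 and 5.86) and HOXC6 (8.57 and 8.69) were also split, with every value above 3. The share of all genes with such a split is not given here. HOXD10, a limb gene, was at 10.82, 10.90 and 10.95 in NKX3.1, at -1.76, 0.91 and 2.05 in R52C, at 10.99, 11.05, 11.01 and 11.04 in T164A and at 11.24, 11.31 and 11.37 in Vector. HOXD9, its neighbour, was at 10.32, 10.46 and 10.56 in NKX3.1, at -1.84, 0.64 and 2.35 in R52C, at 9.88, 9.85, 9.72 and 9.74 in T164A and at 10.77, 10.84 and 10.98 in Vector. In both genes Vector was highest and no groups overlapped. HOXD8 was at 7.88, 8.02 and 8.16 in NKX3.1, at -1.79, 1.66 and 1.90 in R52C, at 8.03, 7.83, 7.92 and 8.02 in T164A and at 8.49, 8.56 and 8.87 in Vector. HOXD4 was at 7.32, 7.48 and 7.64 in NKX3.1, at -1.33, 0.30 and 1.59 in R52C, at 7.92, 7.74, 7.68 and 7.76 in T164A and at 7.79, 8.01 and 8.16 in Vector. NKX3.1 lay under Vector in both, while T164A overlapped NKX3.1 in HOXD8 and Vector in HOXD4.

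The genes at the tail end of HOXD differed in T164A. HOXD13, needed for the digits and in the mouse for prostate growth, was at 4.80, 5.13 and 5.31 in NKX3.1, at -1.31, 1.36 and 1.93 in R52C, at 10.71, 10.57, 10.56 and 10.65 in T164A and at 5.19, 5.65 and 6.02 in Vector. HOXD11 was at 7.82, 8.18 and 8.32 in NKX3.1, at -1.50, -1.05 and 1.42 in R52C, at 9.35, 9.41, 9.47 and 9.38 in T164A and at 8.30, 8.42 and 8.52 in Vector. T164A was above and R52C under every other library in both genes, and NKX3.1 overlapped Vector. HOXD12 averaged 1.98 ± 0.674 in NKX3.1, -0.39 ± 1.14 in R52C, 3.50 ± 0.717 in T164A and 1.20 ± 0.686 in Vector. HOXD3 averaged 6.16 ± 0.211 in NKX3.1, 0.40 ± 1.28 in R52C, 7.35 ± 0.131 in T164A and 6.48 ± 0.232 in Vector. HOXD12 passed 3 in T164A only, and HOXD3 was highest there. HOXD1 averaged 5.23 ± 0.145 in NKX3.1, -0.22 ± 1.14 in R52C, 4.91 ± 0.13 in T164A and 5.56 ± 0.273 in Vector. For HOXD1 the highest mean was in Vector.

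In HOXA, R52C had the lowest value of every gene. HOXA13, which is needed for limb and genital development, was at 6.99, 7.10 and 7.16 in NKX3.1, at -0.79, 1.75 and 2.54 in R52C, at 10.002, 9.94, 9.91 and 9.94 in T164A and at 7.14, 7.63 and 7.71 in Vector. HOXA11, a gene of the uterus and kidney, was at 6.48, 6.63 and 6.95 in NKX3.1, at 1.002, 1.82 and 2.50 in R52C, at 8.83, 9.04, 8.89 and 8.92 in T164A and at 6.93, 7.27 and 7.61 in Vector. Both were under 3 in R52C and highest in T164A, and NKX3.1 overlapped Vector. HOXA10, known for its part in the uterus, was at 6.69, 6.90 and 7.09 in NKX3.1, at 5.66, 5.73 and 5.96 in R52C, at 9.46, 9.42, 9.43 and 9.39 in T164A and at 7.17, 7.50 and 7.73 in Vector. HOXA5, needed for lung development in the mouse, was at 7.42, 7.50 and 7.74 in NKX3.1, at 5.86, 5.96 and 6.08 in R52C, at 9.81, 9.65, 9.59 and 9.76 in T164A and at 7.75, 7.86 and 7.99 in Vector. In these 2 genes all 4 groups lay apart, in the order T164A, Vector, NKX3.1, R52C.

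Other HOXA genes are given as mean ± SD (n = 6, and n = 4 in T164A). HOXA2, a hindbrain gene in the mouse, averaged 5.42 ± 0.193 in NKX3.1, 1.91 ± 0.593 in R52C, 5.68 ± 0.291 in T164A and 5.65 ± 0.231 in Vector. HOXA3 averaged 6.41 ± 0.213 in NKX3.1, 3.30 ± 0.528 in R52C, 7.67 ± 0.0768 in T164A and 6.64 ± 0.203 in Vector. R52C lay under every other library in both, and HOXA3 alone of them had an R52C mean above 3. HOXA4 averaged 3.40 ± 0.382 in NKX3.1, 2.05 ± 0.234 in R52C, 5.65 ± 0.219 in T164A and 3.53 ± 0.537 in Vector. HOXA6 averaged 4.97 ± 0.209 in NKX3.1, 4.04 ± 0.279 in R52C, 7.56 ± 0.136 in T164A and 5.23 ± 0.139 in Vector. HOXA6 stayed above 3 in R52C and HOXA4 did not. HOXA7 averaged 4.07 ± 0.237 in NKX3.1, 0.41 ± 1.24 in R52C, 5.61 ± 0.245 in T164A and 4.59 ± 0.448 in Vector. HOXA9, a regulator of blood progenitors, averaged 6.04 ± 0.373 in NKX3.1, 0.51 ± 1.25 in R52C, 7.75 ± 0.133 in T164A and 6.52 ± 0.163 in Vector. T164A had the highest mean in each of these 6 genes and R52C the lowest.

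T164A had the highest mean of each HOXB gene from HOXB2 to HOXB9. HOXB8 was at -0.47, 0.67 and 2.48 in NKX3.1, at -0.20, 1.04 and 2.15 in R52C, at 8.53, 8.33, 8.49 and 8.31 in T164A and at 1.25, 1.47 and 2.68 in Vector. HOXB6 was at 3.89, 4.50 and 5.01 in NKX3.1, at 4.43, 4.83 and 5.43 in R52C, at 8.57, 8.66, 8.54 and 8.53 in T164A and at 3.94, 4.68 and 4.94 in Vector. HOXB3 was at 5.93, 6.20 and 6.29 in NKX3.1, at 5.35, 5.62 and 5.79 in R52C, at 8.78, 8.93, 9.03 and 9.05 in T164A and at 5.87, 6.34 and 6.58 in Vector. T164A lay above all other libraries in each, HOXB8 was under 3 in the other groups, and for HOXB3 the R52C libraries lay under all others. HOXB2 averaged -0.82 ± 0.834 in NKX3.1, -0.57 ± 1.2 in R52C, 4.42 ± 0.587 in T164A and -0.0014 ± 1.37 in Vector. HOXB7 averaged 1.24 ± 1.06 in NKX3.1, -0.08 ± 1.03 in R52C, 7.63 ± 0.0501 in T164A and 0.52 ± 1.54 in Vector. T164A alone was above 3 in both. HOXB4 averaged 4.17 ± 0.285 in NKX3.1, 0.78 ± 1.22 in R52C, 6.66 ± 0.0649 in T164A and 4.52 ± 0.456 in Vector. HOXB5 averaged 3.02 ± 0.493 in NKX3.1, 3.37 ± 0.333 in R52C, 5.84 ± 0.257 in T164A and 2.88 ± 0.191 in Vector. HOXB4 was under 3 in R52C, while the HOXB5 means outside T164A lay close to 3.

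Of the remaining HOXC genes, HOXC13, needed for hair and nails, was at 7.11, 7.43 and 7.60 in NKX3.1, at 6.67, 6.85 and 6.997 in R52C, at 8.29, 8.22, 8.32 and 8.17 in T164A and at 7.63, 7.71 and 7.95 in Vector, with no overlap between groups. HOXC5 averaged 4.53 ± 0.483 in NKX3.1, 5.12 ± 0.15 in R52C, 5.81 ± 0.157 in T164A and 3.98 ± 0.307 in Vector. HOXC9 averaged 4.73 ± 0.334 in NKX3.1, 4.97 ± 0.365 in R52C, 7.88 ± 0.0784 in T164A and 4.86 ± 0.202 in Vector. Both had their highest mean in T164A. HOXC8 averaged 5.19 ± 0.167 in NKX3.1, 1.30 ± 1.17 in R52C, 7.59 ± 0.111 in T164A and 5.78 ± 0.197 in Vector. HOXC11 averaged 6.07 ± 0.188 in NKX3.1, 1.53 ± 0.86 in R52C, 7.50 ± 0.0595 in T164A and 6.80 ± 0.0908 in Vector. HOXC8 and HOXC11 were thus under 3 in R52C alone, while HOXC9, between them and in the same cluster, was not.

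R52C against Vector asks how cells with the R52C form differed from cells with the control vector. All 11 HOXA genes and all 8 HOXD genes tested were lower in R52C, and 8 genes of HOXB and HOXC were higher, led by HOXB13 and HOXC12. HOXD10 was at least 316-fold lower and HOXB13 was 16.8-fold higher. Of 37 HOX genes tested, 8 rose and 24 fell at an adjusted p under 0.05 by limma with Benjamini-Hochberg adjustment over 21325 genes, which is 86.5%, and in 30 the groups stood apart. Among all genes tested 83.8% passed the test, 42.2% upward and 41.6% downward, and in 70.8% the groups stood apart. The total called is therefore near the background, and the split by direction is not. The median difference was -1.90, or -1.59 with values under 3 raised to 3, against 0.01 over all genes tested. Without HOXB2, HOXB7 and HOXB8, which were under 3 in both groups and were set aside after seeing the data, 94.1% of 34 were called. None of these 3 was called, so leaving them out could only raise the share. The share of all genes was not recomputed in the same way. The median of the 34 was -3.54, with values not raised to 3.

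HOXB13 rose by 4.07 in R52C (SE 0.10, adjusted p = 5.70e-23), averaging 12.78 ± 0.0323 in R52C and 8.71 ± 0.346 in Vector (SD, n = 6 each). HOXC12 rose by 3.66 (SE 0.13, adjusted p = 5.38e-20), which is 12.6-fold. HOXB9 rose by 2.14 (SE 0.18, adjusted p = 2.68e-11), HOXC4 by 1.65 (SE 0.11, adjusted p = 1.32e-13), HOXC5 by 1.14 (SE 0.19, adjusted p = 3.44e-06) and HOXC6 by 0.73 (SE 0.05, adjusted p = 1.19e-12). These 6 did not overlap between the groups. HOXC10 (0.76, adjusted p = 0.00621) and HOXB5 (0.49, adjusted p = 0.0456) were called with overlapping libraries, and with Vector values under 3 raised to 3 their bounds were 0.66 and 0.35. Without Vector replicates 1 to 3 the difference of HOXC10 was 0.32 and its adjusted p 0.266, and HOXB5 lost its call without any 1 of Vector replicates 1, 4, 5 and 6 or of R52C replicates 1, 3, 4 and 6, at adjusted p of 0.0594 to 0.0946.

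For genes with R52C libraries under 3 the difference is a bound, taken with R52C values raised to 3, and the true one is at or under it. The bound was -8.30 for HOXD10, -7.86 for HOXD9, -5.61 for HOXD8, -5.41 for HOXD11 and -5.001 for HOXD4. For HOXD3, HOXD13 and HOXD1 it was -3.48, -2.58 and -2.56. In HOXA it was -4.53 for HOXA13, -4.28 for HOXA11 and -3.52 for HOXA9, and in HOXC it was -3.80 for HOXC11 and -2.78 for HOXC8. HOXA3 at -3.26, HOXA2 at -2.65, HOXA7 at -1.59, HOXB4, a gene of blood stem cells, at -1.52 and HOXA4 at -0.53 followed. In all of these the groups did not overlap. The largest adjusted p was that of HOXA4. It was 3.04e-06 for the difference of -1.48 with values not raised, and 0.00337 with values under 3 raised to 3.

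For genes above 3 in every R52C library the fall could be measured and is no bound. HOXA5 fell by 1.90 (SE 0.06, adjusted p = 1.31e-20), HOXA10 by 1.70 (SE 0.08, adjusted p = 1.75e-16) and HOXA6 by 1.19 (SE 0.13, adjusted p = 5.64e-09). HOXC13 fell by 0.92 (SE 0.08, adjusted p = 4.19e-11) and HOXB3 by 0.67 (SE 0.11, adjusted p = 3.50e-06), again without overlap. HOXB2, HOXB6, HOXB7, HOXB8 and HOXC9 were not called, with HOXC9 at 0.11 (adjusted p = 0.528) and HOXB6 at 0.27 (adjusted p = 0.192). Without R52C replicates 1 to 3, and likewise without replicates 4 to 6, 7 genes were called higher and 24 lower.

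**Figure D3:**
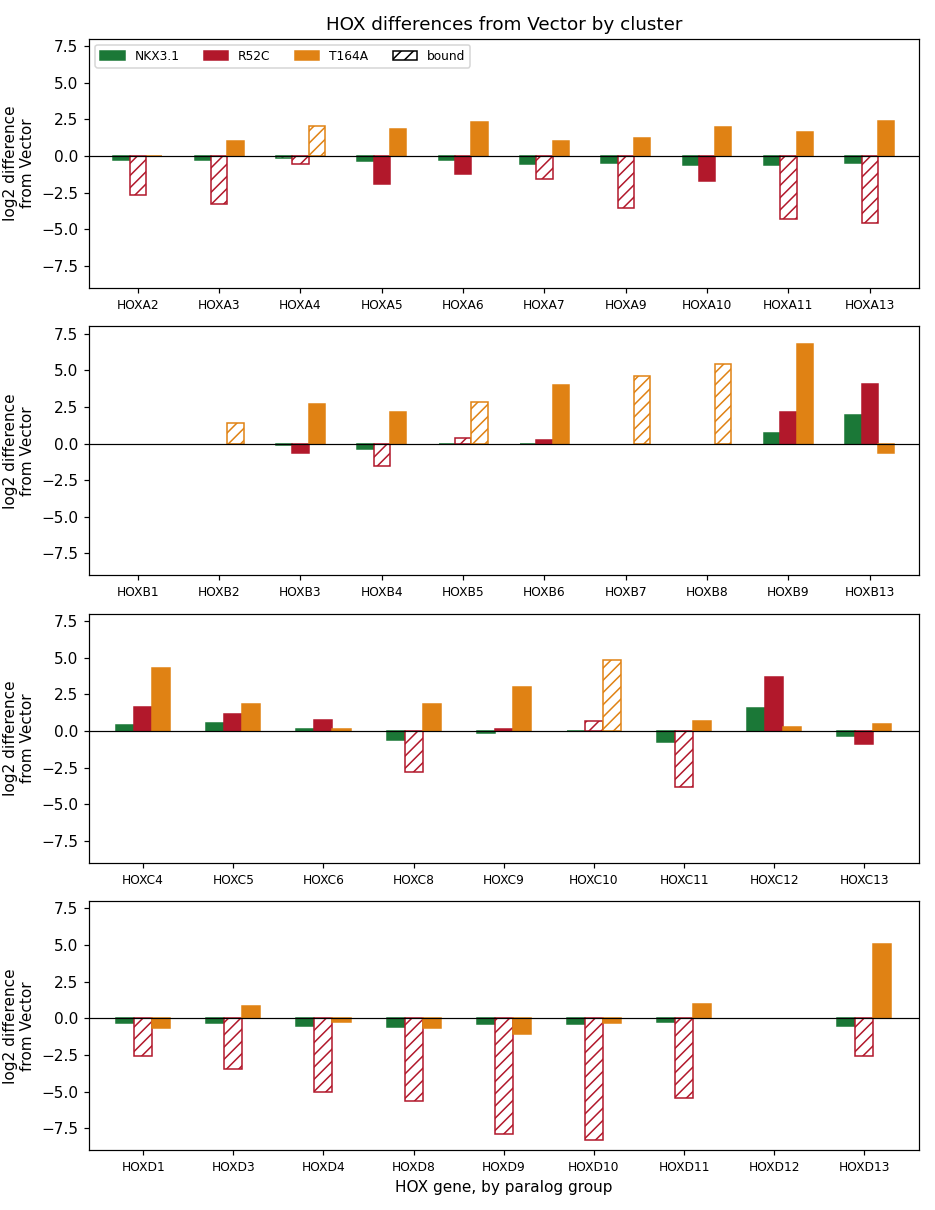
Difference of the log2 level from Vector for 38 HOX genes in NKX3.1, R52C and T164A (bars, left to right), with 1 panel per cluster. Hatched bars are bounds, taken where libraries of the lower group were under 3, and no bar is drawn for HOXB1 and HOXD12, which were not tested, or where both means were under 3. R52C bars point down across HOXA and HOXD, and T164A bars reach 6.82 in HOXB9 and 5.04 in HOXD13.

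T164A against Vector asks the same of the T164A form. Most HOX genes were higher in T164A. HOXB9 rose 113-fold, HOXD13 32.9-fold, HOXC10 at least 29.2-fold and HOXC4 19.2-fold. HOXB13 and HOXD9 were lower. Of 37 genes tested, 28 rose and 2 fell at an adjusted p under 0.05, which is 81.1%, and the groups stood apart in 33. The background was 82.2% called, 40.6% upward and 41.6% downward, with the groups apart in 71.1%, so it is again the split by direction that departs from it. The median difference was 1.81, or 1.64 with values under 3 raised to 3, against -0.04 over all genes tested. HOXB2, HOXB7 and HOXB8 were above 3 in T164A libraries alone and entered the test only through them, so their difference follows from the filter. Without these 3, which were set aside after seeing the data, 25 of 34 genes rose and 2 fell, and the median difference was 1.44.

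HOXB9 rose by 6.82 in T164A (SE 0.20, adjusted p = 6.18e-21), averaging 11.03 ± 0.0445 in T164A (SD, n = 4) and 4.21 ± 0.577 in Vector (SD, n = 6). HOXD13 rose by 5.04 (SE 0.39, adjusted p = 3.56e-12), HOXC4 by 4.27 (SE 0.12, adjusted p = 2.85e-21), HOXB6 by 4.01 (SE 0.21, adjusted p = 1.29e-15) and HOXC9 by 3.02 (SE 0.18, adjusted p = 1.98e-14). As bounds, HOXC10 rose by at least 4.87, HOXB5 by 2.82 and HOXA4 by 2.06. As a description only, the bound was 5.42 for HOXB8, 4.63 for HOXB7 and 1.42 for HOXB2. HOXB3 rose by 2.68 (SE 0.12, adjusted p = 5.32e-17), HOXA13 by 2.42 (SE 0.41, adjusted p = 6.61e-06), HOXA6 by 2.32 (SE 0.15, adjusted p = 9.04e-14), HOXB4 by 2.14, HOXA10 by 1.96, HOXA5 by 1.85, HOXC5 by 1.83, HOXC8 by 1.81 and HOXA11 by 1.64. None of these overlapped with Vector.

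Smaller differences were found for HOXA9 (1.23), HOXA3 (1.02), HOXA7 (1.02), HOXD11 (0.99), HOXD3 (0.87), HOXC11 (0.70) and HOXC13 (0.49), also without overlap. HOXA7, HOXC11 and HOXD3 lost their calls once library medians were made equal (adjusted p 0.0680, 0.0776 and 0.107). HOXB13 fell by 0.64 (SE 0.12, adjusted p = 1.58e-05) and HOXD9 by 1.06 (SE 0.44, adjusted p = 0.0288). HOXA7, HOXC11, HOXD3, HOXD9 and HOXD11 lost their calls without Vector replicates 1 to 3, at adjusted p of 0.0513 to 0.192. All of them but HOXA7 also lost their calls without Vector replicates 4 to 6, at 0.0517 to 0.184. HOXD9 was not called without T164A replicate 3 (adjusted p = 0.0562) or 4 (0.0543), while HOXD3 lost its call without any 1 T164A library (adjusted p 0.0599 to 0.0920) or without Vector replicate 2, 4, 5 or 6, and HOXA7 without T164A replicate 2, 3 or 4 (0.0559 to 0.0654) or Vector replicate 1, 2 or 4. HOXA2 (0.02), HOXC6 (0.12) and HOXC12 (0.29) were not called, nor were HOXD1 (-0.65), HOXD4 (-0.22), HOXD8 (-0.66) and HOXD10 (-0.28). Those 4 HOXD genes were called lower with values under 3 raised to 3 or with T164A and Vector fitted alone, where 6 genes were lower in all. In the fit of T164A and Vector alone, HOXD9, HOXD3 and HOXA7 kept their calls, at adjusted p of 1.10e-11, 5.72e-06 and 0.000642. The fit of all groups also held the spread of R52C libraries under 3, with SDs of 1.51, 1.28 and 1.24 for these genes.

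NKX3.1 against Vector asks how cells with the wild-type factor differed from cells with the control vector alone. HOXB13 and HOXC12 were higher in NKX3.1, by 3.93-fold and 2.93-fold, and these were the largest differences of the family. Every other HOX gene tested differed by less than 2-fold. In HOXA and HOXD every gene tested had a lower mean in NKX3.1. Of 37 genes tested, 5 were called higher and 5 lower, which is 27%, against 41% of all genes tested, 21.6% higher and 19.4% lower. The groups did not overlap in 11, against 23.9% of all genes. The median difference was -0.33 (-0.26 with values raised to 3), against -0.01 over all genes tested.

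HOXB13 rose by 1.97 in NKX3.1 (SE 0.10, adjusted p = 3.29e-14), averaging 10.68 ± 0.182 in NKX3.1 and 8.71 ± 0.346 in Vector (SD, n = 6 each). HOXC12 rose by 1.55 (SE 0.13, adjusted p = 1.55e-10), averaging 6.01 ± 0.22 in NKX3.1 and 4.46 ± 0.323 in Vector. Neither overlapped. HOXB9 (0.69, adjusted p = 0.00341), HOXC5 (0.54, adjusted p = 0.0214) and HOXC4 (0.43, adjusted p = 0.00272) were called higher with overlapping libraries. HOXA10 fell by 0.58 (SE 0.08, adjusted p = 3.22e-06), HOXC11 by 0.73 (SE 0.24, adjusted p = 0.0180), HOXC13 by 0.34 (SE 0.08, adjusted p = 0.00108) and HOXA5 by 0.33 (SE 0.06, adjusted p = 9.71e-05), without overlap, and HOXA11 fell by 0.63 (adjusted p = 0.0251) with overlap. HOXC5 lost its call without Vector replicate 5 or NKX3.1 replicate 1, 3 or 6 (adjusted p 0.0531 to 0.0751), and HOXA11 without Vector replicate 4 or 5 or NKX3.1 replicate 2 (0.0503 to 0.0598). HOXC11 lost its call without Vector replicates 1 to 3 (0.0949) or 4 to 6 (0.0555). With NKX3.1 and Vector fitted alone, HOXC11 and HOXA11 kept their calls (adjusted p 5.54e-06 and 7.73e-05), and HOXC5 did not (0.0611).

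The count of lower genes depended on how the spread was estimated. HOXD8, HOXD9, HOXD10, HOXD4 and HOXC8 did not overlap between NKX3.1 and Vector and yet were not called, with adjusted p of 0.160 to 0.448. In R52C these 5 genes were under 3 with SDs of 1.15 to 1.51, and that spread entered the estimate shared by all groups. With NKX3.1 and Vector fitted alone, 4 genes were higher and 16 lower, where 19.6% and 20.9% of all genes were. HOXD10, at a difference of -0.41, then had an SE of 0.04 and an adjusted p of 1.87e-08, against an SE of 0.38 and an adjusted p of 0.424 with all groups. With values under 3 raised to 3, 5 were higher and 18 lower, against 20.8% and 23.4% of all genes, and the 13 genes added included HOXA7, HOXA9, HOXA13, HOXC8 and the 8 HOXD genes tested.

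**Figure D4:**
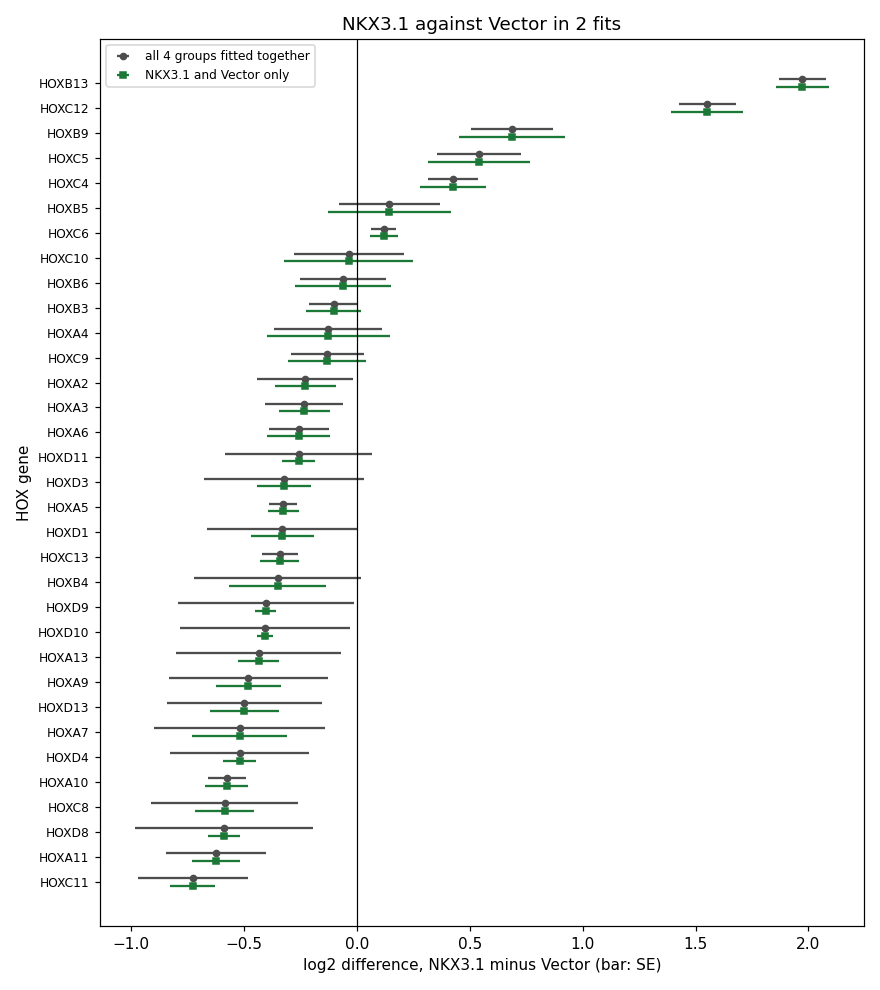
Difference of the log2 level, NKX3.1 minus Vector, with its SE (bar), for 33 HOX genes above 3 in either group, from all 4 groups fitted together (circles) and from NKX3.1 and Vector alone (squares). The differences are the same in both, from -0.73 in HOXC11 to 1.97 in HOXB13, and the bars of the HOXD genes are shorter in the second.

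The wild-type factor and its R52C form were compared directly in NKX3.1 against R52C. HOXA and HOXD were higher in NKX3.1, with HOXD10 at least 238-fold and HOXD9 at least 175-fold higher, and HOXB13 and HOXC12 were lower in NKX3.1. Of 37 genes tested, 25 were called higher and 7 lower, which is 86.5%, against 80.1% of all genes, 39.2% higher and 40.9% lower. In 29 the groups did not overlap, against 68.6% of all genes. The median difference was 1.57, or 1.12 with values raised to 3, against -0.04 over all genes tested. This comparison and that of R52C with Vector share the R52C libraries, so they are not independent. Without HOXB2, HOXB7 and HOXB8, 24 rose and 7 fell, and the median was 3.25, with values not raised to 3.

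All 11 HOXA and all 8 tested HOXD genes were among the higher ones, as bounds by 7.90 for HOXD10, 7.45 for HOXD9, 5.15 for HOXD11, 5.02 for HOXD8, 4.48 for HOXD4, 4.09 for HOXA13 and 3.66 for HOXA11. HOXC8 and HOXC11 were at least 2.19 and 3.07 higher and HOXC13 0.58 higher (adjusted p = 3.07e-07). HOXB13 fell by 2.09 in NKX3.1 (SE 0.10, adjusted p = 2.43e-16), HOXC12 by 2.11 (SE 0.13, adjusted p = 1.77e-14), HOXB9 by 1.45 (SE 0.18, adjusted p = 5.53e-08), HOXC4 by 1.23 (SE 0.11, adjusted p = 8.75e-11) and HOXC6 by 0.62 (SE 0.05, adjusted p = 5.88e-11). HOXC10 (-0.79, adjusted p = 0.00468) and HOXC5 (-0.60, adjusted p = 0.00506) were called lower with overlap, and the bound of HOXC10 was -0.73. HOXB3 was higher by 0.56 (adjusted p = 4.13e-05), a call lost under quantile normalization, where its difference was 0.14 (adjusted p = 0.258). HOXB7 was called higher (adjusted p = 0.0457) although both means were under 3, so no fold is given, and the call was lost without NKX3.1 replicate 2, 4 or 6 or R52C replicate 3, 4, 5 or 6 (adjusted p 0.0573 to 0.126).

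Other genes tied to the clusters were followed as lists. Their counts stand beside the share called of all genes tested, which was 41% in NKX3.1 against Vector, 83.8% in R52C against Vector, 82.2% in T164A against Vector and 80.1% in NKX3.1 against R52C, with the directions about equal in each. Of 8 TALE homeodomain genes, which encode the PBX, MEIS and PKNOX partners of HOX proteins, 1 was higher and 3 lower in NKX3.1 against Vector, 1 and 6 in R52C against Vector, 4 and 2 in T164A against Vector, and 6 and 1 in NKX3.1 against R52C. The shares called were 50%, 87.5%, 75% and 87.5% in that order of comparisons. MEIS2 averaged 7.36 ± 0.148 in NKX3.1, 0.82 ± 1.04 in R52C, 8.75 ± 0.0598 in T164A and 7.67 ± 0.17 in Vector. MEIS1 averaged 8.06 ± 0.13 in NKX3.1, 5.26 ± 0.138 in R52C, 8.57 ± 0.0865 in T164A and 8.40 ± 0.145 in Vector. PBX3 averaged 9.39 ± 0.0516 in NKX3.1, 6.89 ± 0.162 in R52C, 9.52 ± 0.0149 in T164A and 9.80 ± 0.116 in Vector. R52C was lowest for all 3. PKNOX2 was the gene higher in R52C, at 8.36 against 4.45 in Vector, and it was also higher in NKX3.1 at 6.47 and in T164A at 8.25. MEIS3 was higher in T164A, by 2.92 (adjusted p = 1.80e-12).

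Of 16 non-coding RNAs of the clusters, 1 was higher and 5 lower in NKX3.1 against Vector, 1 and 11 in R52C against Vector, 14 and 1 in T164A against Vector, and 11 and 0 in NKX3.1 against R52C. The shares called were 37.5%, 75%, 93.8% and 68.8% in that order of comparisons. HOTAIRM1, at the head end of HOXA, averaged 8.06 in NKX3.1, 4.81 in R52C, 9.20 in T164A and 8.54 in Vector. HOXD-AS1 averaged 7.19 ± 0.142 in NKX3.1, 3.01 ± 0.487 in R52C, 8.12 ± 0.0671 in T164A and 7.58 ± 0.191 in Vector. HOTAIR, from the HOXC cluster, averaged 4.77 ± 0.272 in NKX3.1, 1.74 ± 0.496 in R52C, 7.73 ± 0.169 in T164A and 5.18 ± 0.276 in Vector. HOXB-AS3 rose to 7.19 in T164A, against 1.998 in Vector (difference 5.19, SE 0.37, adjusted p = 8.60e-13, with values not raised to 3). Its Vector mean was under 3, with 1 Vector library above, so the size of the difference is not a measured one. Several of these overlap HOX genes on the other strand, so they are not separate measurements.

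Genes that flank the clusters differed among themselves. Of 14 tested, 4 were higher and 5 lower in NKX3.1 against Vector, 8 and 5 in R52C against Vector, 6 and 5 in T164A against Vector, and 4 and 9 in NKX3.1 against R52C. The shares called were 64.3%, 92.9%, 78.6% and 92.9% in that order of comparisons. PRAC1, a small gene next to HOXB13 that is expressed in prostate and distal colon, was at 9.42 to 9.75 in NKX3.1, 11.07 to 11.29 in R52C, 0.9999 to 2.45 in T164A and 7.32 to 8.13 in Vector. The groups did not overlap. TTLL6, on the same side, was at 5.55 to 6.39 in NKX3.1, 7.76 to 8.01 in R52C, 3.41 to 3.98 in T164A and 3.57 to 4.53 in Vector, with T164A and Vector overlapping. CDX2, a ParaHox gene that regulates HOX genes in the intestine, averaged 8.35 in T164A and 2.56, under the limit of 3, in Vector. Of the 8 genes of that list it and PDX1 alone were tested. CDX2 was above 3 in all 4 T164A libraries and in 3 others. It thus entered the test only through T164A, and its levels are given as a description only.

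Regulators of the clusters were called in both directions, as were all genes. Of 21 Polycomb genes, which keep HOX genes silent, 5 were higher and 6 lower in NKX3.1 against Vector, 11 and 8 in R52C against Vector, 15 and 4 in T164A against Vector, and 8 and 12 in NKX3.1 against R52C, which is 52.4%, 90.5%, 90.5% and 95.2% in that order of comparisons. PHF19, a Polycomb partner, averaged 10.53 in NKX3.1, 7.50 in R52C, 10.97 in T164A and 10.80 in Vector. Of 15 Trithorax and demethylase genes, which oppose Polycomb, 4 were higher and 2 lower in NKX3.1 against Vector, 6 and 9 in R52C against Vector, 10 and 4 in T164A against Vector, and 9 and 6 in NKX3.1 against R52C, which is 40%, 100%, 93.3% and 100%. KDM6A, an H3K27 demethylase, averaged 11.12 in NKX3.1, 12.61 in R52C, 10.14 in T164A and 10.40 in Vector. Of 15 genes of the retinoic acid pathway, an inducer of HOX genes, 1 was higher and 6 lower in NKX3.1 against Vector, 2 and 11 in R52C against Vector, 9 and 4 in T164A against Vector, and 11 and 2 in NKX3.1 against R52C, which is 46.7%, 86.7%, 86.7% and 86.7%. CRABP2, which carries retinoic acid, averaged 10.34 in NKX3.1, 3.50 in R52C, 10.02 in T164A and 10.48 in Vector. RARB, a retinoic acid receptor, averaged 3.68 ± 0.364 in NKX3.1, 5.67 ± 0.176 in R52C, 7.58 ± 0.0956 in T164A and 2.53 ± 0.582 in Vector.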

How the data were processed

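Poly-A RNA from the 22 libraries was sequenced after TruSeq preparation, per the labels' protocols. The values are log2 expression levels as deposited by the authors in 1 table that held all 22 libraries. DESeq, Cufflinks, TopHat and CASAVA 1.8.2 are named in the submitters' processing notes, with the builds GRCh37 and mm9 (mm9 alone for T164A). Which tool made the values, and how they were normalized, is not given in the sources used here. No group could therefore be checked for a difference in processing, and reads per library are unknown.

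Of 56299 entries, 3473 without a gene name and 4178 sharing a symbol were dropped, which left 48648. Genes above 3 in at least 4 libraries (21325, with 37 of the 39 HOX genes) were fitted by limma 3.58.1 in R 4.3.3, with 1 mean per group over all 4 groups and a trend in the variance moderation. Tests were two-sided with Benjamini-Hochberg adjustment over all genes tested, and a gene was called at an adjusted p under 0.05. The procedure was tested on simulated data that gave each gene the same spread in every group. Such data cannot show the effect of a wider spread in a single group. No 2 libraries held identical values.

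Members above 3 in at least 1 group are named, apart from what is not reported, library values are given for the 20 with the highest group mean, and test values for up to 20 called members a comparison whose groups did not overlap. From the other lists, up to 4 genes with the smallest p were eligible. Alternatives were 2 scalings, other filters, values raised to 3, other variance settings, fits of 2 groups, and leaving out libraries. The members and lists were chosen with earlier results of these data known. Some genes are not reported here and are left out of the figures.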

Additional observations from a re-analysis of the deposited data

Results flagged for a closer look

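Among 118 sets of HOX gene by group that were examined, 3 held a library far from the others of its group, and chance alone marks about 1 set in 20. T164A replicate 4 was low for HOXA9, at 7.56, where the others were at 7.82 to 7.83. NKX3.1 replicate 4 was high for HOXA11, at 6.95, where the others were at 6.48 to 6.64, and it alone made NKX3.1 overlap Vector for this gene. Vector replicate 1 was low for HOXB9, at 3.06, where the others were at 4.25 to 4.63.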

How the results depend on the processing

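Counts of lower genes moved by over 1.5 times in 2 comparisons. For NKX3.1 against Vector, where 5 were lower, it was 18 with values under 3 raised to 3, 16 with the 2 groups alone and 3 without Vector replicates 4 to 6. For T164A against Vector, where 2 were lower, it was 6 with values raised to 3, 6 with the 2 groups alone, 1 with no variance trend, and 1 without Vector replicates 1 to 3 or 4 to 6. With 1 library left out at a time, NKX3.1 against Vector gave 4 to 6 higher and 4 to 6 lower, R52C against Vector 7 to 8 higher and 24 lower each time, T164A against Vector 26 to 28 higher and 1 to 2 lower, and NKX3.1 against R52C 24 to 25 higher and 7 to 8 lower. Quantile normalization gave 10 higher in R52C against Vector, where 8 were, and 10 lower in NKX3.1 against R52C, where 7 were, as did equal library medians in the second. Of 104 calls by gene and comparison, 92 were kept under every alternative in which the gene was tested, 12 were lost under at least 1, and none reversed. The cause was not tested, except that the fit of 2 groups leaves out the spread of R52C libraries under the limit of 3. Shifting libraries to the same median moved the median of all genes by 0.13 in R52C against Vector, -0.18 in T164A against Vector and -0.22 in NKX3.1 against R52C, and quantile normalization moved it by 0.11 in R52C against Vector and -0.18 in NKX3.1 against R52C. No paired analysis was possible because the labels give no replicate numbers shared between groups.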
